A study of Mus musculus with 8 samples.

Results

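The genes described here are 37 pan-macrophage and leukocyte genes, given as a list of surface antigens, lysosomal proteins, transcription factors and signalling proteins of blood-derived cells. Each was read from probe sets that the platform annotation ties to exactly 1 gene symbol, and the brightest on average was taken where a gene had several. By this rule 36 of the 37 genes were measured, out of 18193 genes in all, and Lyn was not analysed here. Macrophages are phagocytes that settle in embryonic tissues from yolk sac and later blood-forming sources, and they clear dying cells and remodel tissue. They share with other leukocytes a set of genes that mesenchymal cells use little: the phosphatase CD45, the beta-2 integrins, the phagocyte oxidase, Rac2 and its exchange factors, and the ETS transcription factor PU.1, which drives much of the myeloid programme. Blood cells do not descend from the neural crest.

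RNA came from primary mouse palatal mesenchyme of strain C57BL/6J, taken at embryonic day 13.5 and grown through 2 passages in standard medium. Mutant embryos (Tgfbr2 fl/fl;Wnt1-Cre) carried floxed alleles of the TGF-beta type II receptor gene together with Wnt1-Cre, a transgene that acts in neural crest cells and their descendants, and control embryos (Tgfbr2 fl/fl) carried the same alleles but no Cre. There were 4 Affymetrix arrays per genotype, numbered here as the labels number them, and this limits the precision of all values. The labels do not say whether each array came from its own embryo or litter, so a p-value measures only the spread between these samples, which may be technical. The study asked how loss of TGF-beta signalling affects metabolism in the palatal mesenchyme.

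Values are log2 intensities as the authors deposited them, so a difference of 1 is a doubling of the signal. Tgfbr2 itself was read by 3 probe sets. Its brightest averaged 12.42 ± 0.47 on mutant arrays and 12.04 ± 0.40 on control arrays (SD, n = 4 each), a difference of 0.37 (adjusted p = 0.538, limma). The sources used here do not place this probe set relative to the floxed segment, so its level does not check the labels. The other probe sets differed by 0.08 and 0.07, so none of the 3 was lower on average in mutants, and the genotypes are taken as labelled. Of 15 genes of palatal mesenchyme, 13 exceeded the median probe set on each of the 8 arrays, among them Prrx1, Pdgfra and Col1a1. Osr2 and Tbx22, which mark the palate more narrowly, lay below it on all 8. The arrays also fell into sets by their spiked-in controls: the bioB hybridisation control was low on arrays 1 and 2 of each genotype, at 6.34 to 6.52, and high on arrays 3 and 4 of each, at 8.24 to 8.79. By the poly-A labelling controls, mutants 3 and 4 and control 3 were low (6.77 to 7.56) and the other arrays high (8.53 to 9.21). Over all genes, mutant 4 stood apart from its genotype: the SD of its difference from each other mutant was 0.526 to 0.582, against 0.214 to 0.305 among mutants 1 to 3 and 0.313 between mutant 4 and control 3. The controls were spread as well, at 0.191 between controls 1 and 2, 0.381 between controls 3 and 4, and 0.400 to 0.524 between these pairs.

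All 36 genes lay above the median probe set (a log2 intensity of 6.94) on every array of both genotypes, where 61.9% of all genes did. Their mean was 12.37, 12.24, 12.43 and 10.50 on mutant arrays 1 to 4, against 11.46, 11.62, 10.42 and 10.28 on control arrays 1 to 4. Mutants 1 to 3 were above every control, mutant 4 lay with controls 3 and 4, and controls 1 and 2 lay between. The group means were 11.89 ± 0.93 in mutants and 10.94 ± 0.69 in controls (SD, n = 4 each). Nearly every gene followed that order. Mutant 4 was the lowest mutant array for all 36 genes, and the highest mutant array was mutant 3 for 21 genes and mutant 1 for 15. Among controls, control 2 was highest for 30 genes and control 1 for 6, and control 4 was lowest for 24 and control 3 for 12. In bulk RNA of this kind, more leukocytes in a culture and more of these RNAs per leukocyte cannot be told apart.

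**Figure D1:**
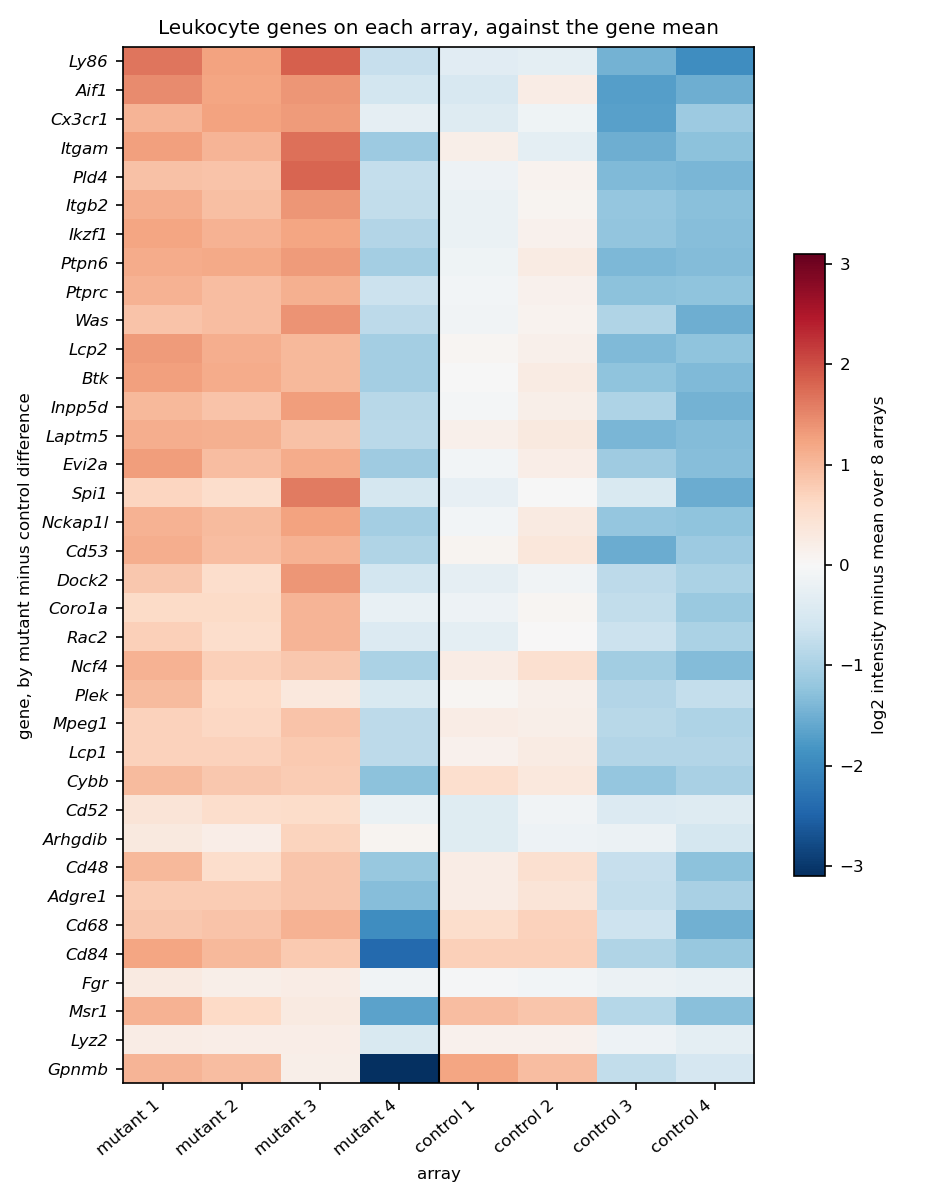
Heat map of the 36 leukocyte genes (rows, ordered by mutant minus control difference) on the 8 arrays (columns, mutants left of controls). Colour is the log2 intensity minus the gene's own mean over the 8 arrays: mutants 1 to 3 are above the mean in every row, while mutant 4 and controls 3 and 4 are below it in nearly every row.

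Between genotypes, 35 of the 36 genes had a higher mean on mutant arrays and Gpnmb a higher mean on control arrays. Over all 18193 genes, 48.3% had a higher mutant mean. The median difference of the 36 was 1.10, against -0.00778 over all genes. None of the 36 passed the test at an adjusted p of 0.05 (limma, Benjamini-Hochberg over all 18193 genes), where 0.0879% of all genes did (16 genes), and their adjusted p-values ran between 0.187 and 0.930. Before adjustment 15 of the 36 had a p under 0.05, each with the higher mean in mutants, a mark that 15.5% of all genes met in either direction and 5.84% with the higher mean in mutants. Only Arhgdib had all mutant arrays above all control arrays, which held for 2.89% of all genes. The 95% interval of the difference included 0 for 21 of the 36. The SE of the difference ran from 0.10 for Fgr to 0.93 for Gpnmb.

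**Figure D2:**
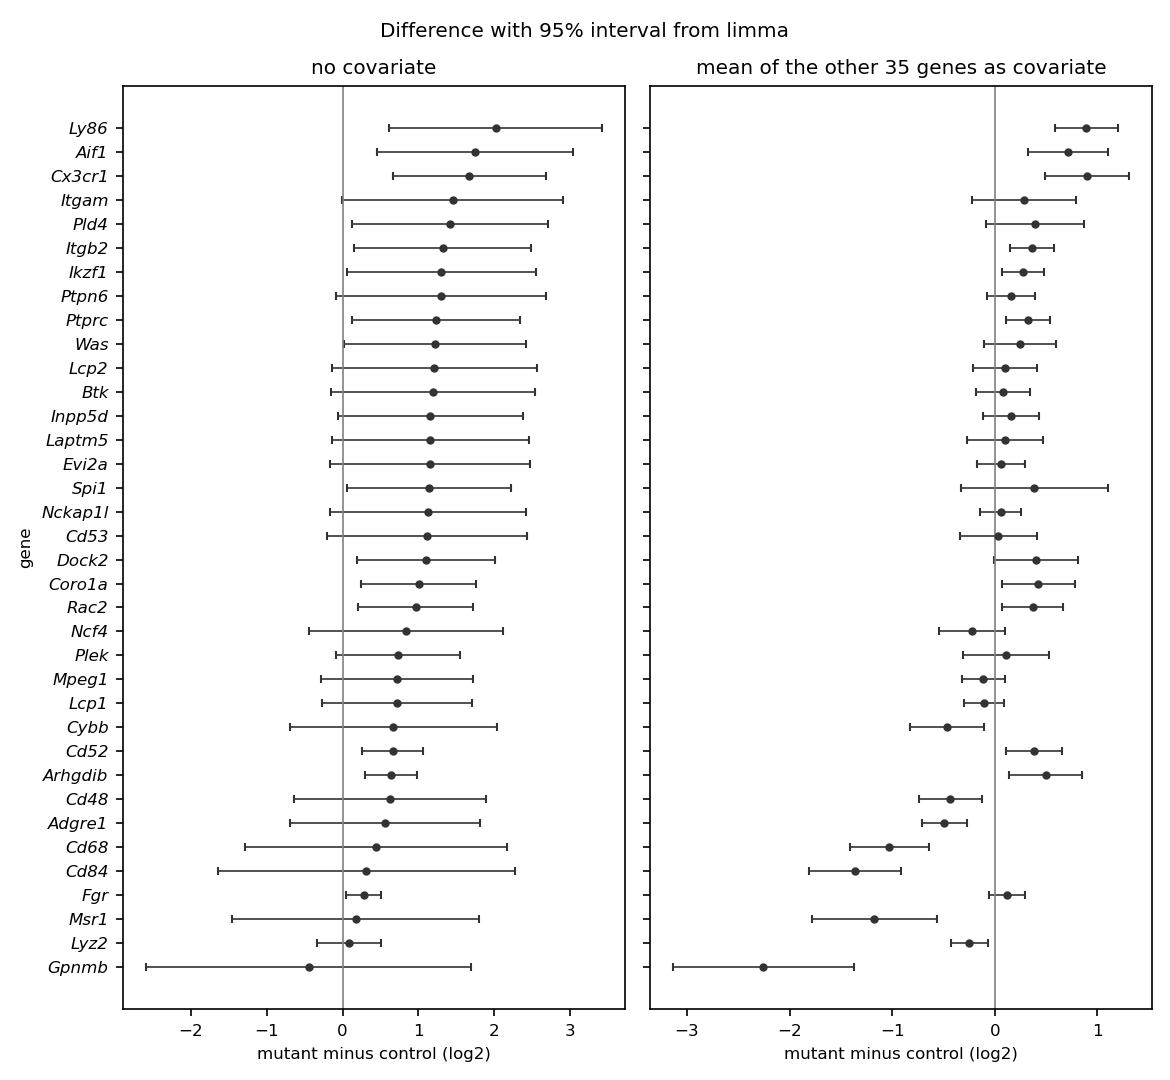
Mutant minus control difference (log2, x axis) with limma's 95% interval for each of the 36 genes (y axis), without a covariate on the left and with the mean of the other 35 genes as a covariate on the right. On the left, 35 of 36 points are above 0 with wide intervals; on the right the intervals narrow, 25 points are above 0 and 11 below, and Gpnmb, Cd84, Msr1 and Cd68 lie lowest.

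Mutant 4 decided how many genes passed. Without it, 21 of the 36 had an adjusted p under 0.05, each with the higher mean in mutants, where 7.23% of all genes passed and 3.74% passed on that side, and the median difference was 1.49. Leaving out any other single array gave 0 of 36, with medians of 0.82 to 1.28. Within the bioB-low arrays alone (mutants 1 and 2 against controls 1 and 2), 28 of 36 passed, all on the higher side, where 11.5% of all genes passed and 5.03% on that side, with a median difference of 0.80. Those arrays are also the pairs of each genotype that differed least from each other. Within the bioB-high arrays alone (mutants 3 and 4 against controls 3 and 4), none of the 36 and none of all genes passed, 3 of the 36 and 5.21% of all genes had an unadjusted p under 0.05, and the median difference was 1.29. The median thus had the same sign in both array sets. With the bioB set as a block in a fit of all 8 arrays none of the 36 passed, where 0.110% of all genes did, and 25 had an unadjusted p under 0.05, where 22.1% of all genes did. With the poly-A set as a block none passed, where 0.0110% of all genes did, and 24 had an unadjusted p under 0.05, where 21.8% did. Averaging arrays 1 and 2 within each genotype left none passing and 7 with an unadjusted p under 0.05, where 8.86% of all genes had one. Weighting the arrays by their quality gave 7 passing, all on the higher side, where 8.08% of all genes passed and 2.98% on that side.

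Of the transcription factors, Spi1 encodes PU.1 and Ikzf1 encodes Ikaros, a zinc finger regulator of lymphoid and myeloid development. Spi1 had log2 intensities of 11.16, 11.03, 12.09 and 9.95 on mutant arrays, against 10.24, 10.46, 10.02 and 8.96 on control arrays. All but mutant 4 were above all controls, and mutant 4 was above control 4 only. The difference was 1.14 (SE 0.47, adjusted p = 0.303, limma). Ikzf1 had 10.62, 10.49, 10.62 and 8.49 on mutant arrays and 9.19, 9.55, 8.18 and 8.09 on control arrays, a difference of 1.30 (SE 0.54, adjusted p = 0.306, limma). Again the first 3 mutant arrays cleared every control, and mutant 4 lay above controls 3 and 4 and below controls 1 and 2.

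PU.1 binds purine-rich DNA with a GGAA core, and promoters of genes that moved together on the arrays are shown for that reason. RefSeq promoter windows of the GRCm38.p6 build, 250 bases before to 50 after a start site, were found for 27 of the 36 genes (33 windows). The 8 letters GAGGAAGT, on either strand, were in 3 of the 33 windows (9.09%) and in 1052 of all 32851 windows. These belong to Inpp5d, Cd53 and Pld4. The shorter GAGGAA, which lies inside the longer motif, was in 17 windows (51.5%), against 28.3% of all windows. A composite ETS and IRF motif, GGAA and GAAA with any 2 bases between them, was in 2 windows (6.06%, against 2.72% of all), those of Cd68 and Cybb. These matches describe letters and do not show binding. The windows with GAGGAAGT are printed first, then that of Itgam, which held GAGGAA 3 times, and that of Ly86, which held none of the 3 motifs and had the largest difference between genotypes. Capitals mark GAGGAAGT or its reverse complement in the first 3 and GAGGAA or its reverse complement in Itgam, and each sequence is the gene's own strand read 5′ to 3′.
Inpp5d, chr1:87620062-87620361, plus strand: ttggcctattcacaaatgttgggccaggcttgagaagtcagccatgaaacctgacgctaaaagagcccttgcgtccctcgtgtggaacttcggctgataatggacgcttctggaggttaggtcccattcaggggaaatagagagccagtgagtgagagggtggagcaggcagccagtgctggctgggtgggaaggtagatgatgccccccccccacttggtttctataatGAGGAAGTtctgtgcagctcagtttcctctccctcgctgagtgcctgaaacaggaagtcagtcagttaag
Cd53, chr3:106790100-106790399, minus strand: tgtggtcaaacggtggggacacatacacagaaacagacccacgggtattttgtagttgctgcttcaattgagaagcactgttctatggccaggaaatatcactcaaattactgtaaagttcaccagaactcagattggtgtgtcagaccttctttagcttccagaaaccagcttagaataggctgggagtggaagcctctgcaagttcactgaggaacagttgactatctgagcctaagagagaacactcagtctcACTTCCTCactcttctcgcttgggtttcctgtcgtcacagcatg
Pld4, chr12:112760405-112760704, plus strand: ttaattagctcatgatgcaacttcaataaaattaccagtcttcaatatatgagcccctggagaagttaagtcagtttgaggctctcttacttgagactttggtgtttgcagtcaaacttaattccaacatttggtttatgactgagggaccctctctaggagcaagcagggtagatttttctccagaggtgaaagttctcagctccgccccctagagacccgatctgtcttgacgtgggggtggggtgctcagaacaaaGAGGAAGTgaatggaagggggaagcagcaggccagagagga
Itgam, chr7:128062390-128062689, plus strand: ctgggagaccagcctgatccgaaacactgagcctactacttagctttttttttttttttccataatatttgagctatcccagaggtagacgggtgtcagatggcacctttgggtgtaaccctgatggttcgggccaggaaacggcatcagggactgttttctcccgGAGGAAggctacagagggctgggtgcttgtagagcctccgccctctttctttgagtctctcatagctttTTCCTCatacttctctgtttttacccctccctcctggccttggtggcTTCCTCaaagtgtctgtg
Ly86, chr13:37345095-37345394, plus strand: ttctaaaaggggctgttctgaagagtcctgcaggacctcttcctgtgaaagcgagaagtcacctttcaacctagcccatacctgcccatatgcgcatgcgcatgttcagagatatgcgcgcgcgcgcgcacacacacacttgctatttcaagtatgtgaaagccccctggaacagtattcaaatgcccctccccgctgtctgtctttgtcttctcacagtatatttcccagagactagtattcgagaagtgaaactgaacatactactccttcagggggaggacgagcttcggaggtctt
The match lay 20 bases before the start site in Inpp5d, and after it in Cd53 and Pld4.

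Among the 11 surface antigens and adhesion receptors, all had a higher mutant mean, with a median difference of 1.15 and a range of 0.31 to 2.02, and 5 had an unadjusted p under 0.05. Of all genes, 15.5% had such a p in either direction and 5.84% with the higher mean in mutants. Ptprc encodes CD45, the tyrosine phosphatase carried by all nucleated blood cells. It had log2 intensities of 13.37, 13.26, 13.41 and 11.64 on mutant arrays, against 12.21, 12.44, 11.04 and 11.06 on control arrays. The first 3 mutant arrays were above all controls, and mutant 4 was above controls 3 and 4 but below controls 1 and 2. The difference was 1.23 (SE 0.48, adjusted p = 0.283, limma), and 1.66 without mutant 4 (adjusted p = 0.0391).

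Ly86, which encodes MD-1, the partner of the Toll-like receptor relative RP105, had the largest difference of the 36. Its values were 13.02, 12.60, 13.21 and 10.63 on mutant arrays, against 11.06, 9.90 and 9.42 on control arrays 2 to 4, with control 1 between controls 2 and 3. The first 3 mutants were each above the highest control by more than 1, and mutant 4 lay inside the control range. The difference of 2.02 (95% interval 0.62 to 3.42) is a 4.05-fold higher mean, with an adjusted p of 0.208 (limma). Cx3cr1, the receptor for fractalkine on monocytes and tissue macrophages, had 12.14, 12.34, 12.41 and 10.81 on mutant arrays, against 10.69, 10.95, 9.42 and 9.96 on control arrays. Mutant 4 was above 3 of the 4 controls, and the difference was 1.67 (SE 0.44, adjusted p = 0.189, limma).

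**Figure D3:**
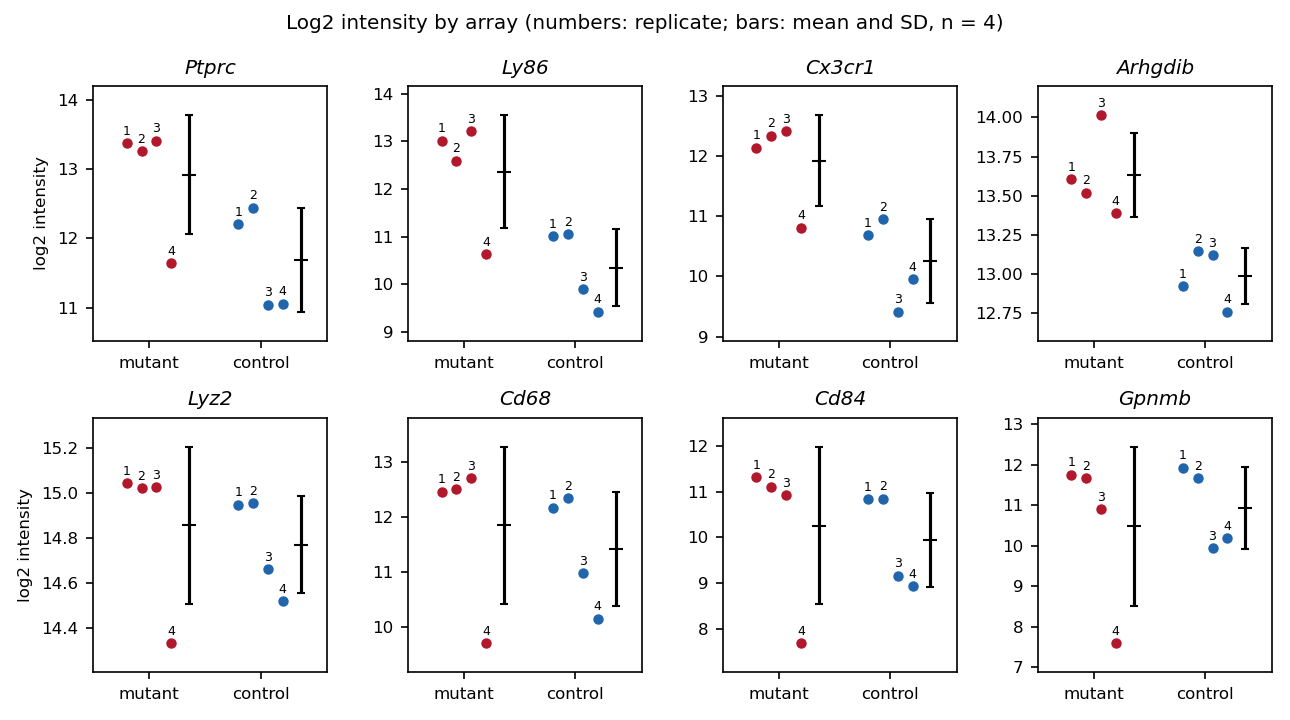
Log2 intensity (y axis, own scale per panel and not starting at 0) of 8 of the genes on each array, mutants in red left of controls in blue, with the replicate number above each point and bars for the mean and SD (n = 4). Mutant 4 is the lowest mutant in all 8 panels, and only in Arhgdib are all mutants above all controls.

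The integrin chains Itgam (CD11b) and Itgb2 (CD18) pair as complement receptor 3. Itgam had 11.10, 10.86, 11.52 and 8.68 on mutant arrays and 9.99, 9.51, 8.31 and 8.56 on control arrays, and Itgb2 had 13.27, 13.09, 13.52 and 11.39 on mutant arrays and 11.94, 12.23, 10.96 and 10.85 on control arrays. In both chains mutants 1 to 3 were above every control, and mutant 4 was above controls 3 and 4 and below controls 1 and 2. The differences were 1.45 (SE 0.64) and 1.32 (SE 0.51). Adgre1, an adhesion receptor that marks mouse macrophages, had 13.99, 13.99, 14.06 and 11.88 on mutant arrays and 13.43, 13.60, 12.45 and 12.19 on control arrays. Here mutant 4 was below every control, and the difference was 0.56 (SE 0.54, adjusted p = 0.657, limma).

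Cd52, a small lipid-anchored glycoprotein of leukocytes, had 14.55, 14.68, 14.72 and 13.94 on mutant arrays, against 13.76, 14.03, 13.71 and 13.75 on control arrays. Its control arrays were close together, and mutant 4 was below control 2 alone. The difference was 0.66 (SE 0.18, adjusted p = 0.189, limma). The other antigens were the tetraspanin Cd53, with a difference of 1.11, the SLAM family receptors Cd48 (0.63) and Cd84 (0.31), and Evi2a, a membrane protein gene lying within an intron of Nf1 (1.15). Cd84 spread widely within mutants, at 11.31, 11.11, 10.92 and 7.69, against 10.83, 10.84, 9.16 and 8.94 in controls. Mutant 4 was its lowest array.

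Of the 7 genes for lysosomal, secreted and scavenger proteins, 6 had a higher mutant mean, and the median difference was 0.44. Cd68, macrosialin of the phagocyte lysosome, had 12.47, 12.51, 12.71 and 9.71 on mutant arrays, against 12.18, 12.35, 10.98 and 10.15 on control arrays. In mutants 1 to 3 it was above all controls, though by little over controls 1 and 2, and mutant 4 was the lowest of the 8. The difference was 0.44 (SE 0.75, adjusted p = 0.817, limma). Pld4, an endolysosomal exonuclease, had 11.50, 11.46, 12.38 and 9.84 on mutant arrays, against 10.42, 10.70, 9.22 and 9.17 on control arrays. It was the gene of this group with an unadjusted p under 0.05, with a difference of 1.42 (SE 0.57, adjusted p = 0.288, limma). Mutant 4 lay between the pairs of controls.

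Gpnmb, a transmembrane glycoprotein of phagocytes, osteoclasts and melanocytes, had the widest range of the 36 genes, 4.32. Its values were 11.75, 11.66, 10.89 and 7.60 on mutant arrays, against 11.92, 11.66, 9.94 and 10.18 on control arrays. Mutants 1 and 2 were close to controls 1 and 2, and mutant 4 was far below all other arrays. The difference of -0.45 (SE 0.93, adjusted p = 0.852, limma) was 0.51 without mutant 4. Msr1, scavenger receptor A, had 12.44, 11.98, 11.63 and 9.71 on mutant arrays, against 12.32, 12.20, 10.48 and 10.07 on control arrays, and its groups overlapped almost fully (difference 0.17, SE 0.71). Mpeg1 (perforin-2), Laptm5 and Lyz2 (lysozyme M) had differences of 0.72, 1.15 and 0.09.

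The oxidase and Rac genes, 4 in number, had differences of 0.64 to 0.96. Cybb and Ncf4 encode the gp91 and p40 parts of the phagocyte NADPH oxidase, and differed by 0.67 (SE 0.59) and 0.83 (SE 0.56). Rac2, the blood cell Rac GTPase, had 13.31, 13.13, 13.64 and 12.15 on mutant arrays, against 12.27, 12.59, 11.91 and 11.61 on control arrays, a difference of 0.96 (SE 0.33, adjusted p = 0.244, limma). Mutant 4 was again inside the control range. Arhgdib, a gene used mainly by blood cells, had 13.61, 13.52, 14.01 and 13.39 on mutant arrays, against 12.92, 13.15, 13.12 and 12.76 on control arrays. Every mutant, mutant 4 included, was above every control. Its difference of 0.64 (SE 0.15) had the lowest p of the 36, at 0.00233, with an adjusted p of 0.187 (limma). Rac1, the widely expressed relative of Rac2, ranged over only 0.15 across the 8 arrays, against 2.03 for Rac2.

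All 6 measured genes for kinases, phosphatases and adaptors had a higher mutant mean, with a median difference of 1.17. They encode the tyrosine kinases Btk and Fgr, the phosphatases SHP-1 (Ptpn6) and SHIP1 (Inpp5d), the adaptor SLP-76 (Lcp2) and the protein kinase C substrate pleckstrin (Plek). Ptpn6 differed by 1.30 (SE 0.60), Lcp2 by 1.21 (SE 0.59), Btk by 1.19 (SE 0.59), Inpp5d by 1.16 (SE 0.53) and Plek by 0.73 (SE 0.36). Fgr was the gene of this group with an unadjusted p under 0.05. It had 8.24, 8.13, 8.19 and 7.84 on mutant arrays, against 7.92, 7.88, 7.77 and 7.73 on control arrays. Its mutants 1 to 3 were above all controls, within the narrowest range of the 36 genes (0.51), and the difference was 0.28 (SE 0.10, adjusted p = 0.265, limma).

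The actin regulators were 6 genes with differences of 0.71 to 1.74, and 4 of them had an unadjusted p under 0.05, where 15.5% of all genes had one. Aif1, the calcium-binding protein IBA1 of macrophages and microglia, had 13.40, 13.16, 13.32 and 11.38 on mutant arrays, against 11.45, 12.17, 10.25 and 10.44 on control arrays. Its mutant 4 was below controls 1 and 2 and the other mutants above all controls, and the difference was 1.74 (SE 0.56, adjusted p = 0.225, limma). Coro1a (coronin 1A) had 13.48, 13.47, 13.94 and 12.66 on mutant arrays, against 12.72, 12.96, 12.12 and 11.75 on control arrays, a difference of 1.00 (SE 0.33). Mutant 4 was below controls 1 and 2.

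Dock2, the Rac exchange factor of leukocytes, had 9.93, 9.63, 10.46 and 8.50 on mutant arrays, against 8.80, 8.96, 8.27 and 8.10 on control arrays, a difference of 1.10 (SE 0.40). Was, the Wiskott-Aldrich protein that activates the Arp2/3 complex, had 10.64, 10.72, 11.15 and 8.95 on mutant arrays, against 9.65, 9.87, 8.82 and 8.24 on control arrays, a difference of 1.22 (SE 0.52). Both kept mutants 1 to 3 above the controls and mutant 4 among them. Nckap1l (HEM1 of the WAVE complex) differed by 1.13 and Lcp1 (L-plastin) by 0.71. Of the widely expressed relatives, Nckap1 had a difference of -0.45 (SE 0.22), Pls3 of -0.15 (SE 0.11) and Coro1b of 0.66 (SE 0.23). None of these passed the test. Over 16 such relatives of the 36 genes, all brighter than the median probe set throughout, the median difference was -0.12. A higher mutant mean was found for 6 of the 16, and 0 passed the test. An unadjusted p under 0.05 was found for 4, where 15.5% of all genes had one, and of the 4 Coro1b alone was higher in mutants. The others were Wasl (-0.39, SE 0.11), Yes1 (-0.54, SE 0.17) and Dock1 (-0.22, SE 0.09).

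The 36 genes varied together. Over the 8 arrays their 630 pairs had a mean Pearson r of 0.89, a median of 0.93 and a range of 0.05 to 1.00, and 83.7% of pairs exceeded 0.8, while the mean r over pairs of all genes was 0.0177. The first principal component held 89.7% of their variance, against 55.3% for all genes. The pattern was also present within genotypes: with each genotype's mean subtracted, the mean r was 0.92 and the first component 95.3%. Without mutant 4 the values were 0.92 and 94.0%. These correlations describe 8 arrays that share their normalisation and array sets, and carry no test.

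Single genes differed in how closely they tracked the rest. Nckap1l had an r of 0.998 with the mean of the other 35 genes, Evi2a 0.996 and Lcp1 0.995. Gpnmb (0.67), Arhgdib (0.72) and Msr1 (0.83) tracked it least over all arrays. After the genotype means were subtracted Gpnmb had an r of 0.95 and Msr1 of 0.96, whereas Arhgdib had 0.57. Gpnmb and Msr1 thus moved with the others within each genotype, and Arhgdib did so less.

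With the mean of the other 35 genes as a covariate, the genotype difference of each gene was read at an equal level of the rest. The median difference was then 0.12, with 25 genes higher and 11 lower in mutants. Each gene is here set against the rest of its own list. A median near 0 with genes on both sides follows from that, and higher or lower is relative to the list. None of the 36 passed (lowest adjusted p 0.0587), where 0.126% of all genes did, and 18 had an unadjusted p under 0.05, where 15.9% of all genes did. The shares of all genes with a covariate, here and below, come from a fit with the mean of all 36 instead. Among these 18, 10 were on the higher side and 8 on the lower side. The lowest estimates were for Gpnmb at -2.26 (SE 0.38, adjusted p = 0.0769), Cd84 at -1.36 (SE 0.19, adjusted p = 0.0587), Msr1 at -1.17 (SE 0.26, adjusted p = 0.149) and Cd68 at -1.03 (SE 0.17, adjusted p = 0.0689, limma).

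The highest estimates were Cx3cr1 at 0.90 (SE 0.18, adjusted p = 0.118), Ly86 at 0.89 (SE 0.13, adjusted p = 0.0604) and Aif1 at 0.71 (SE 0.17, adjusted p = 0.155, limma). Leaving out each array in turn, Gpnmb stayed between -2.60 and -1.40, Cd84 between -1.54 and -0.92, Cd68 between -1.09 and -0.91, Ly86 between 0.81 and 0.96 and Cx3cr1 between 0.78 and 0.98. The values nearest 0 for Gpnmb, Cd84 and Cd68 came without mutant 4. In that setting 11 of the 36 had an unadjusted p under 0.05, where 14.4% of all genes did, and none passed after adjustment, where 0.137% of all genes did. Without control 4, 5 of the 36 passed, where 1.19% of all genes did. Lower in mutants in that setting were Cd68 at -1.07 (adjusted p = 0.0240), Cd84 at -1.34 (adjusted p = 0.0310) and Gpnmb at -2.20 (adjusted p = 0.0405, limma). Higher were Ly86 at 0.87 (adjusted p = 0.0343) and Cx3cr1 at 0.94 (adjusted p = 0.0415, limma). None of the 36 passed in the other 7 settings, where 11 to 20 had an unadjusted p under 0.05. Among those settings, the share of all genes with such a p is given here only without mutant 4. Control 4 thus decided whether any of the 36 passed with the covariate. The fit assumes 1 slope for both genotypes, and mutant 4 is the mutant array at control level.

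Bright probe sets left little room at the top of the scale. The highest value on any array lay between 15.05 and 15.18. Lyz2 had 15.04, 15.02, 15.03 and 14.33 on mutant arrays, against 14.95, 14.95, 14.66 and 14.52 on control arrays. Its mean was at the 99.9th percentile of probe sets, it came within 0.11 of an array's highest value, and mutants 1 to 3 spanned 0.0198. Lyz2 thus held mutants 1 to 3 and controls 1 and 2 between 14.95 and 15.04, arrays that Ptprc spread over 12.21 to 13.41. Cd52 came within 0.42 of the highest value with a range of 1.01, and the next nearest, Adgre1, within 1.08 with a range of 2.18.

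Across the 36 genes, the mean level and the SD over arrays had a Spearman correlation of -0.42. Brighter genes thus tended to vary less, although the smallest SD of the 36 was that of Fgr (0.20). Genes are not independent replicates, and no test was made. The slope on the other genes was 0.26 for Lyz2, 0.41 for Cd52 and 0.31 for Arhgdib, against 1.52 for Ly86 and 1.35 for Itgam. Fgr, the dimmest of the 36, had a slope of 0.20, so a narrow range occurred at both ends of the scale. Saturation of single probes was not tested, since probe intensities before summarising were not analysed here.

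**Figure D4:**
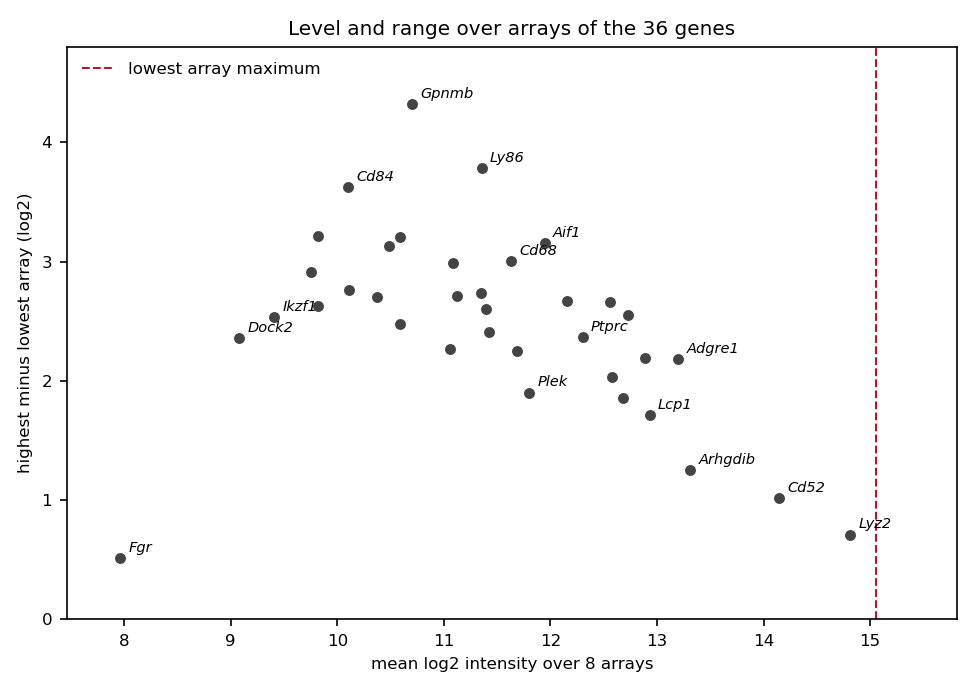
Mean log2 intensity over the 8 arrays (x axis) and highest minus lowest array (y axis, log2) for each of the 36 genes as points, with selected names, and the lowest of the 8 array maxima as a dashed line. The range is widest for Gpnmb (4.32) and narrows toward the dashed line, to 1.01 for Cd52 and 0.71 for Lyz2, and is narrowest for the dim Fgr (0.51).

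Further probe sets of the same genes gave a check on the chosen ones. Of 29 further probe sets, 28 had the same sign of difference as the brightest, and of the 22 above the median probe set 21 did. The exception was 1 of the probe sets for Laptm5, at 9.04 on mutant and 9.73 on control arrays, a difference of -0.69 against 1.15 for the brightest. In 9 of those 22 the range over arrays was wider than in the brightest. Evi2a was the clearest case, with a difference of 2.12 and a range of 4.29 in its further probe set, against 1.15 and 2.61 in the brightest. A further Fgr probe set ranged over 1.26, against 0.51. For Dock2 the 2 further probe sets gave 0.28 and 0.25, the second of them below the median probe set, against 1.10 in the brightest. Inpp5d gave 0.37 in a further probe set, against 1.16, and Ikzf1 gave 0.13 in one below the median probe set, against 1.30.

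Other cell type lists were read beside the 36 genes. Of 25 further macrophage genes 22 exceeded the median probe set on every array, their median difference was 0.68, and 1 of them, the phagosome transporter Slc11a1, had an unadjusted p under 0.05 (1.00, SE 0.41), as did 15.5% of all genes. Of 8 genes of microglia and yolk sac macrophages 2 exceeded the median probe set on every array, the median difference was 0.05, and 1, Vsig4, had an unadjusted p under 0.05. Their list mean ran from 6.98 to 7.32 on mutant and 6.82 to 7.32 on control arrays. The 2 above the median were Tmem119, with a difference of -0.25 (SE 0.28), and Folr2, with -0.03 (SE 0.53). Of the 8 genes, 5 had a higher mutant mean. P2ry12, a purine receptor of microglia, had 8.27, 8.16, 8.08 and 5.85 on mutant arrays, against 7.45, 7.72, 5.99 and 5.79 on control arrays, a difference of 0.85 (SE 0.65, adjusted p = 0.563, limma). Csf1r, the receptor that keeps macrophages alive, had 14.03, 14.01, 13.81 and 12.04 on mutant arrays, against 13.40, 13.46, 12.06 and 11.90 on control arrays, the order of arrays seen in the 36. Osteoclast genes, of the bone-resorbing cells that form from the same precursors, had a median difference of 1.07 over 8 genes, 6 of them with an unadjusted p under 0.05 and none passing the test. The osteoclast list had a mean of 9.85, 9.97, 9.53 and 8.16 on mutant arrays, against 8.35, 8.38, 8.16 and 8.15 on control arrays. Controls 1 and 2, which were well above controls 3 and 4 in the 36 genes, were close to them in this list mean. Single genes of the list did not all share this. On control arrays 1 to 4, Itgb3 had 8.22, 8.18, 9.52 and 9.34, and Ctsk had 12.15, 12.06, 11.81 and 11.13. Itgb3 was thus higher on controls 3 and 4, and Ctsk on controls 1 and 2.

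Acp5, the tartrate-resistant phosphatase of osteoclasts and some macrophages, had 13.71, 13.80, 13.81 and 10.30 on mutant arrays, against 11.28, 11.66, 9.89 and 10.56 on control arrays, a difference of 2.06 (SE 0.81, adjusted p = 0.285, limma). Atp6v0d2, a proton pump subunit, had 10.85, 10.90, 9.86 and 6.40 on mutant arrays, against 7.43, 7.16, 6.44 and 6.61 on control arrays, a difference of 2.59 (SE 0.92, adjusted p = 0.257, limma). In both, mutants 1 to 3 stood above every control, and mutant 4 lay within the control range for Acp5 and below it for Atp6v0d2. Dcstamp and Calcr had the smallest p of the osteoclast list. They differed by 0.73 (SE 0.15, adjusted p = 0.161) and 0.51 (SE 0.13, adjusted p = 0.187, limma). In these, every mutant, mutant 4 included, was above every control, which held for 2.89% of all genes. Calcr was below the median probe set on every array.

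Lists of other blood cells were mostly dim on average, apart from that of platelets, though single genes in them were bright. Of 10 T cell and NK genes 3 exceeded the median probe set on every array, and the list mean ran from 6.52 to 6.68 on mutant and 6.37 to 6.60 on control arrays. Zap70 was the brightest of them, at 9.28 to 9.67 over the 8 arrays, with a difference of 0.11 (SE 0.10). Mast cell and basophil genes were below the median on all 8 arrays in 8 of 8 cases. The list mean of 7 B cell genes ran from 6.84 to 7.19 on mutant and 6.63 to 6.87 on control arrays. Of the B cell list Cd79b stood out at 9.76, 9.64, 10.74 and 7.81 on mutant arrays, against 7.74, 8.44, 7.37 and 7.16 on control arrays (difference 1.81, SE 0.57, adjusted p = 0.220, limma). Cd79a, its partner in the B cell receptor, differed by -0.17. Of 9 neutrophil genes 3 were above the median on all arrays, and their list mean ran from 6.76 to 7.28 on mutant and 6.88 to 7.07 on control arrays. Of 6 dendritic cell genes and of 6 erythroid genes, 1 each was above the median on all arrays. The dendritic list mean was at most 6.47 on mutant and 6.46 on control arrays, and the erythroid one at most 6.40 on mutant and 6.35 on control arrays. Epor was the erythroid gene above the median, with a difference of 0.40 (SE 0.09, adjusted p = 0.177, limma). Each mutant was above each control in Epor, which held for 2.89% of all genes.

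Of the 5 platelet and megakaryocyte genes, 5 were above the median on all arrays, with list means of 8.81 to 9.30 on mutant and 8.97 to 9.14 on control arrays. Pf4, a platelet chemokine, had 11.89, 11.67, 10.32 and 8.15 on mutant arrays, against 11.72, 11.77, 10.15 and 9.71 on control arrays. Ppbp, another platelet chemokine, had 9.25, 10.47, 8.85 and 11.91 on mutant arrays, against 10.21, 9.43, 11.81 and 12.32 on control arrays. Ppbp was thus high on mutant 4 and controls 3 and 4, where the 36 genes were low. Gp9, a platelet receptor subunit, had an unadjusted p under 0.05 (difference 0.69, SE 0.20, adjusted p = 0.198, limma).

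Mesenchymal genes had a list mean of 10.91 to 11.43 on mutant and 10.95 to 11.33 on control arrays, with a median difference of -0.09. Col1a1, a chain of type I collagen, had 12.53, 12.95, 13.05 and 13.14 on mutant arrays, against 13.28, 13.20, 13.54 and 13.15 on control arrays. Each mutant was below each control, though mutant 4 and control 4 were nearly equal, with a difference of -0.37 (SE 0.15, adjusted p = 0.285, limma). Col1a2, the other chain, was also lower on each mutant array than on any control (-0.16, SE 0.08, adjusted p = 0.348, limma). There mutant 2 at 14.804 lay just under control 4 at 14.807. The share of all genes with each mutant below each control is not given here. Col3a1 overlapped (-0.38, SE 0.12, adjusted p = 0.232, limma). Control 4 was low in Pdgfra, at 10.10 against 12.23 to 12.62 on the other controls, and in Lum, at 12.76 against 13.97 to 14.39. The difference was 0.92 (SE 0.52) for Pdgfra and 0.08 (SE 0.32) for Lum. Of the 15 mesenchymal genes, 5 had a higher mutant mean. What part these lists have in the differences of the 36 genes was not tested.

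**Figure D5:**
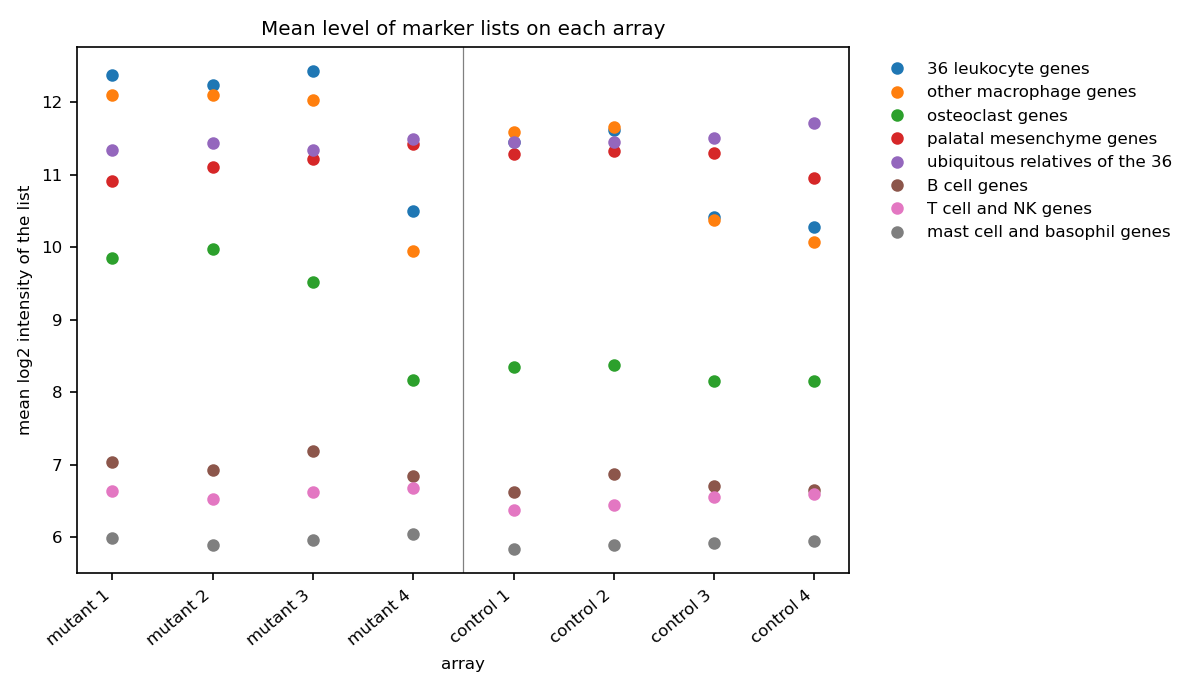
Mean log2 intensity of 8 gene lists (y axis, not starting at 0) on each array (x axis, mutants left of controls), 1 point per list and array. The 36 leukocyte genes, the other macrophage genes and the osteoclast genes are high on mutants 1 to 3 and low on mutant 4, while the mesenchymal genes and the widely expressed relatives move little and the B, T and mast cell lists stay low.

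Outside the list, the genes whose pattern over the 8 arrays was most like the mean of the 36 were sought among 12124 genes above the median probe set. The 12 with the highest Pearson r were Fyb, Nrros, Fermt3, Adcy7, Hhex, Igsf6, Arhgap30, AI467606, Arhgef6, Pgap2, Hpgds and Clec4a3, with r from 0.996 to 0.999. Their differences between genotypes ran from 0.80 for Pgap2 to 2.43 for Clec4a3, and none passed the test. Fyb encodes a T cell and myeloid adaptor that binds SLP-76, and Fermt3 encodes kindlin-3, which activates integrins in blood cells. The 6 most opposite genes were Ext1, Mtch2, Apbb2, Ggct, Spsb1 and Zfp469, with r from -0.99 to -0.98. Ext1, a heparan sulphate polymerase, ranged from 10.64 to 12.06 over the arrays, with a difference of -0.57.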

How the data were processed

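Biotin-labelled cRNA from total RNA was hybridised to Affymetrix mouse arrays, per the labels' protocols. The authors deposited log2 intensities, 1 per probe set and array, made with RMA per the submitters' processing notes (version not given in the sources used here), and these were used unscaled. The table held 45101 probe sets. Of these, 34945 carried a single gene symbol and were kept, 932 carried several and 9160 had none listed, and 64 array controls were set aside. Symbols were brought up to date through Entrez identifiers in a RefSeq table (GRCm38.p6), which held 34741 of the kept probe sets. No genome build is named for the arrays, so coordinates are given for RefSeq promoters only.

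Mutant minus control was fitted by limma 3.58.1 in R 4.3.3 over 18193 genes without covariates, two-sided, with Benjamini-Hochberg adjustment and a threshold of 0.05. SE and 95% intervals are moderated. Groups came from sample titles, which call the control samples Tgfbr2 wild type. Array sets were split at the widest gap of the bioB and poly-A controls. The members and gene lists were chosen with earlier results of these data known. Values on every array are given for genes with an unadjusted p under 0.05 or no overlap, the 3 brightest and 3 dimmest, and Ptprc, Spi1, Cd68, Adgre1 and Itgam. Cd84, Gpnmb and Msr1 were added after their values were seen, as were Csf1r, Acp5, Atp6v0d2, Cd79b, P2ry12, Pf4, Ppbp, Col1a1, Col1a2, Col3a1, Pdgfra and Lum. Tested on simulated data for this comparison with 18193 genes, the procedure recovered 76% of 100 genes changed by 1 and 97% of 100 changed by 2 on the log2 scale, with 11 false calls among 184. The changed genes were picked at random from all genes, and the noise was drawn independently for each gene. The genes of the list varied together and many had wide spreads, so these percentages do not give the power for them. Alternatives covered array blocks, normalisation, probe set choice, dim genes, variance model, array weights and each array left out. Averaging the closest arrays, and the covariate fit with single arrays left out, were chosen after seeing the data.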

Additional observations from a re-analysis of the deposited data

Results flagged for a closer look

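In 20 of the 72 sets of 4 arrays examined (36 genes in 2 genotypes), 1 array lay far from the other 3, by a gap that exceeded Dixon's 95% critical value as a share of the whole range. Chance alone marks about 1 set in 20, and genes that vary together do not give independent sets. In 19 of the 20, the array was mutant 4, the lowest of its genotype. Its log2 intensities were, for surface antigens, 11.64 in Ptprc, 10.81 in Cx3cr1, 11.88 in Adgre1, 11.63 in Cd53, 7.69 in Cd84 and 10.29 in Evi2a. Lysosomal and secreted proteins followed, with 9.71 in Cd68, 14.33 in Lyz2, 11.89 in Laptm5 and 11.87 in Mpeg1. The transcription factor Ikzf1 was at 8.49, and the oxidase genes Cybb and Ncf4 at 10.41 and 10.45. Signalling genes were at 10.07 in Ptpn6, 9.32 in Lcp2 and 8.78 in Btk, and actin regulators at 11.38 in Aif1, 12.12 in Lcp1 and 9.54 in Nckap1l. The remaining case was control 2, the highest control for Cd52 at 14.03. What sets mutant 4 apart was not tested.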

How the results depend on the processing

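The number of the 36 passing was 0 and the median difference 0.80 to 1.17 with the replicate block, either array set as a block, quantile normalisation, arrays centred on their median, averaged probe sets, dim genes left out, a trended and robust variance, the platform's own symbols and the closest arrays averaged. Those with an unadjusted p under 0.05 numbered 25 with the bioB block, 24 with the poly-A block and 7 with the closest arrays averaged, against 15. Averaging probe sets gave Ikzf1 0.72, Dock2 0.54 and Inpp5d 0.77, against 1.30, 1.10 and 1.16. With array weights 7 passed (1470 of all genes), and in the bioB-low arrays alone 28 (2085 of all genes). Leaving out 1 array gave 0 to 21 of the 36 passing, medians of 0.82 to 1.49, and 0 to 1316 of all genes, the highest without mutant 4. Of all genes, 0 passed with the replicate block, in the bioB-high arrays alone and with the closest arrays averaged, and 2 passed with the poly-A block, against 16. Unadjusted p-values under 0.05 then numbered 3828, 947, 1612 and 3957. Deviations of equal replicate numbers correlated at 0.47, 0.42, -0.09 and 0.37, which did not meet the rule for pairing (every pair over 0.1), and with the block 28 of the 36, against 15, had an unadjusted p under 0.05. With the mean of the other genes as a covariate the median was 0.12, and 0.13 with mutant 4 left out as well. With control 4 left out instead it was 0.12 and 5 passed. That covariate reversed Cd68 (-1.03), Lyz2 (-0.25), Adgre1 (-0.49), Mpeg1 (-0.11), Cybb (-0.46), Ncf4 (-0.22), Cd48 (-0.43), Cd84 (-1.36), Lcp1 (-0.11) and Msr1 (-1.17). Msr1 also reversed in the bioB-low arrays (-0.049), with array weights (-0.012) and with single arrays left out (range -0.23 to 0.75). With single arrays left out Cd84 ranged from -0.037 to 1.17 and Gpnmb from -0.87 to 0.51, and Gpnmb was 0.045 with the poly-A block. With the covariate, a difference is relative to the other genes of the list. The cause of these reversals was not tested. Lyz2 and Cd52 lie nearest the top of the intensity scale, and whether this narrows their differences was not tested. The 4 arrays per genotype limit the precision.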
